A study of Mus musculus with 2 samples.

Results

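Hepatokines are proteins that the liver releases into the blood and that act on other tissues. The 10 genes described here are Fgf21, Gdf15, Ahsg, Fetub, Inhba, Inhbc, Inhbe, Fst, Rbp4 and Enho. The set was taken by name as secreted hepatokines, with no threshold on their values but with earlier results of these data known. They were read from 11 probes of an oligonucleotide array, Enho from 2 probes and the others from 1 each, out of 20652 genes that the array names. All 10 were among the 16346 genes measured, meaning that the gene's probe was well above its local background on at least 1 array. Of the 10, 9 were well above background on both arrays, and no spot of a hepatokine was saturated.

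The arrays compared the livers of fasting mice with those of mice upon feeding, in 1 pool of 3 male mice per group and 1 array per pool. The study's legend gives the microarray an n equal to the number of mice, while the series' design describes pools, and each group is taken here as 1 sample. For the fasting group the labels give a fast of 16 h in one place and of 14 to 16 h overnight in another. The feeding group is described both as fed ad libitum and as given food after the fast, so whether these mice had been fasted first, and for how long they ate, is not settled. Neither group carries a transgene or drug treatment in the labels, which give no strain or age, and the study's methods name male C57BL/6 J mice for its experiments as a whole. Because each group was a single pool on a single array, the differences have no replicate check. They carry neither a p-value nor a standard error, and the spread between mice was not measured.

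FGF21 is a hormone of the fasted liver that signals through FGF receptors together with the coreceptor beta-klotho, and its gene is known as a target of the fatty acid sensor PPARα and of the stress factor ATF4. The activins are dimers of inhibin beta subunits, signal through serine/threonine kinase receptors and SMAD proteins, and are bound and neutralized by follistatin. GDF15 is a stress-induced hormone with its receptor in the hindbrain, the fetuins are cystatin-related plasma glycoproteins, RBP4 carries retinol in plasma, and Enho encodes the peptide adropin.

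Of the 4 hepatokines past 2-fold, Fgf21, Inhba and Inhbe have a promoter in the sequence table used here, and these 3 are shown because their signals went in opposite directions between the groups. Each is the 250 bases before the RefSeq transcription start on GRCm38.p6, written 5′ to 3′ on the gene's strand, with capitals where 1 of 5 searched motifs was found on either strand.
Fgf21 promoter, chr7:45615491-45615740, minus strand: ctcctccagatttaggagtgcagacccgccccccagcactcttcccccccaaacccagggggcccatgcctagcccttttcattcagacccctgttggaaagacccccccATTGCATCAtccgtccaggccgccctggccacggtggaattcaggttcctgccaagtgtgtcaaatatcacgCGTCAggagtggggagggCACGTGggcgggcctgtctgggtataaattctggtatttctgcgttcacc
Inhba promoter, chr13:16011601-16011850, plus strand: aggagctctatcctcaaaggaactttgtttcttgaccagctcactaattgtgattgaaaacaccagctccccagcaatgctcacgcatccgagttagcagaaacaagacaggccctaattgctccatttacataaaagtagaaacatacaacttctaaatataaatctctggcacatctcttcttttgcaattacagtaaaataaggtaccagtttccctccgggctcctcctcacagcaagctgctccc
Inhbe promoter, chr10:127351849-127352098, minus strand: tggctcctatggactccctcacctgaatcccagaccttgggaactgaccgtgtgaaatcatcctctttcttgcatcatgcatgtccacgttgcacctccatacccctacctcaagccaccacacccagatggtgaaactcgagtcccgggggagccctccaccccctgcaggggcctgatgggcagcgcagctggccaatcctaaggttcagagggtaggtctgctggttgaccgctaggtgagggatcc

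The motifs were TGATGNAAT (the letters of an amino acid response element), CACGTG (an E-box), AGGTCA (a nuclear receptor site), TGACG (the core of a CRE) and GTAAACA (a forkhead site). In Fgf21, ATTGCATCA is TGATGNAAT read on the opposite strand and begins 140 bases before the start, CGTCA is TGACG on the opposite strand at 68 bases, and CACGTG lies at 50 bases. None of the 5 motifs was in the 250 bases of Inhba, Inhbe or Inhbc. Of 32851 promoter windows of the same length, 0.816% held TGATGNAAT, 6.02% CACGTG, 14.0% AGGTCA, 17.8% TGACG and 3.17% GTAAACA. The same letters were also found in hepatokines short of 2-fold. The upstream start of Rbp4 held TGATGNAAT as TGATGAAAT 76 bases before the start. The E-box letters and the nuclear receptor site were each before a start of Gdf15, and the CRE core and the forkhead site were each before a start of Fetub and of Rbp4. A match is a description of letters and not of binding, and only 8 of the 10 hepatokines had a window to search.

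In the comparison of feeding with fasting, 4 of the 10 hepatokines were past 2-fold, the threshold named in the study's methods. Inhba and Inhbe, both activin subunits, were higher upon feeding, while Fst, the activin antagonist, and Fgf21 were lower. Among all genes measured, 7.9% were past 2-fold in either direction, 3.27% higher and 4.62% lower. The hepatokines were chosen with earlier results of these data known, so their count beside this share is a description and not a test. Of the 4, Inhba was counted by a lower bound, as it was well above background upon feeding only, and Fgf21 was at 2.004-fold. The other 6 hepatokines had log2 changes between -0.02 and 0.54. The median absolute log2 change was 0.41 over the hepatokines and 0.26 over all genes measured. The signed median was 0.18 against 0 over all genes. All levels below are normalized signals, the processed spot intensities after quantile normalization of the 2 arrays, and all changes are log2 of feeding minus fasting.

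**Figure D1:**
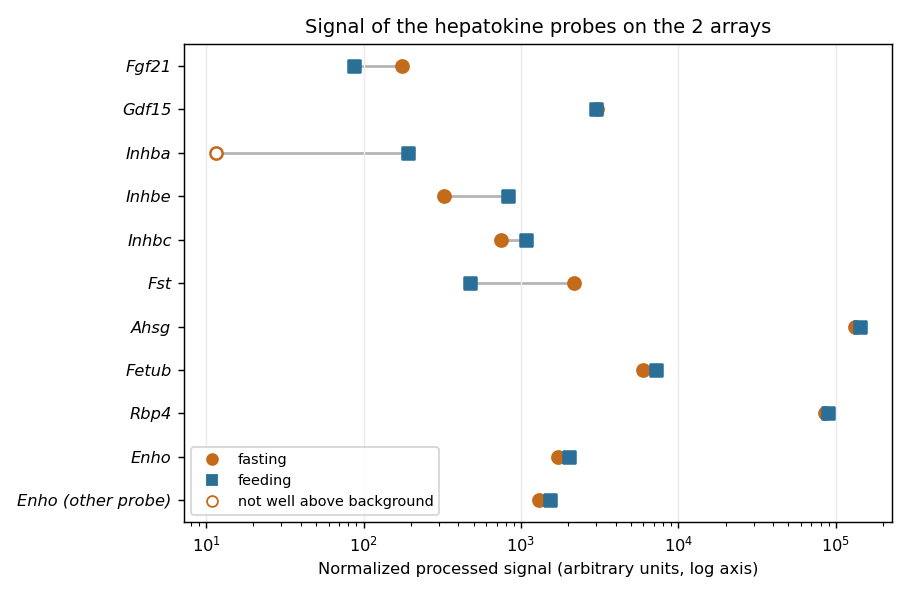
Normalized signal in arbitrary units (horizontal, log axis) of each hepatokine probe on the fasting array (circles) and the feeding array (squares), 1 point per array, with each pair joined by a line. The open circle of Inhba marks a spot not well above background, the squares of Inhba and Inhbe lie well to the right of their circles, those of Fst and Fgf21 to the left, and the other pairs lie close together. Heights of different probes are not comparable with each other.

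Fgf21 was lower upon feeding. Its processed signal was 188 ± 19.2 (the error that the extraction software gives for the spot) on the fasting array and 80.7 ± 8.20 on the feeding array, over local backgrounds of 23.5 and 21.0. After normalization the levels were 175 and 87.3, a log2 change of -1.003, or 2.004-fold lower. The hormone's transcript was therefore detected in both states, and its decrease lay at the threshold itself: 4.59% of all genes measured decreased more. The change was 5.41 times the SD of 0.19 that replicate spots of similar brightness gave for a difference between the arrays. By the extraction software's spot errors, the change had an error of 0.21. The change was -0.43 after a normexp correction of the raw median signal and -0.99 when the arrays were scaled by their medians, both short of 2-fold. In bulk liver RNA, fewer cells of a type and less RNA per cell cannot be told apart for this gene or any other.

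FGF receptor and klotho genes were read from the same arrays. Of 6 genes for FGF receptors and klothos, 5 were measured, none was past 2-fold and their median log2 change was 0.53. Klb, which encodes beta-klotho, had signals of 1907 upon fasting and 2751 upon feeding, a change of 0.53. Fgfr4, the main FGF receptor of hepatocytes, was at 2194 and 3758, a change of 0.78. Both were higher upon feeding, without reaching 2-fold. Fgfr1 was at -0.35, with its probes between -1.14 and -0.35, and Fgfr2 at -0.33, so the receptor genes lay on both sides of 0. Fgfr3 had a change of 0.95, with its 2 measured probes at -0.16 and 0.95, and it passed 2-fold under scaling by the 75th percentile (1.01) and by the median (1.14). Kl, the gene of alpha-klotho, did not stand well above background in either pool.

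Of 18 genes listed as regulators of Fgf21 transcription or tied to its induction, all were measured, 2 were higher and 3 lower past 2-fold (27.8% of the list, against 7.9% of all genes measured), and their median change was -0.16. Ppargc1a, a fasting-induced coactivator, was at 1400 upon fasting and 146 upon feeding, a change of -3.26. Nfil3, a repressor under circadian and insulin control, changed by -1.19, and Cpt1a, a PPARα target that encodes the mitochondrial carnitine palmitoyltransferase, by -1.07 with its probes between -1.68 and -1.07. These 3 were lower upon feeding, as Fgf21 was. Ddit3, the stress factor CHOP, went the other way from 312 to 1475, a change of 2.24, and Xbp1, a factor of the unfolded protein response, from 19946 to 45645, a change of 1.19. Ppara itself changed by -0.78, Creb3l3 by -0.50 and Nr1h4, the bile acid receptor FXR, by 0.91, none of them past 2-fold. Atf4 had a change of 0.62, but its 2 probes disagreed, at -0.42 and 0.62. Under scaling by the median, Nfil3 (-0.99) and Cpt1a (-0.86) were short of 2-fold and Nr1h4 (1.12) was past it, and under scaling by the 75th percentile Cpt1a was at -0.99.

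**Figure D2:**
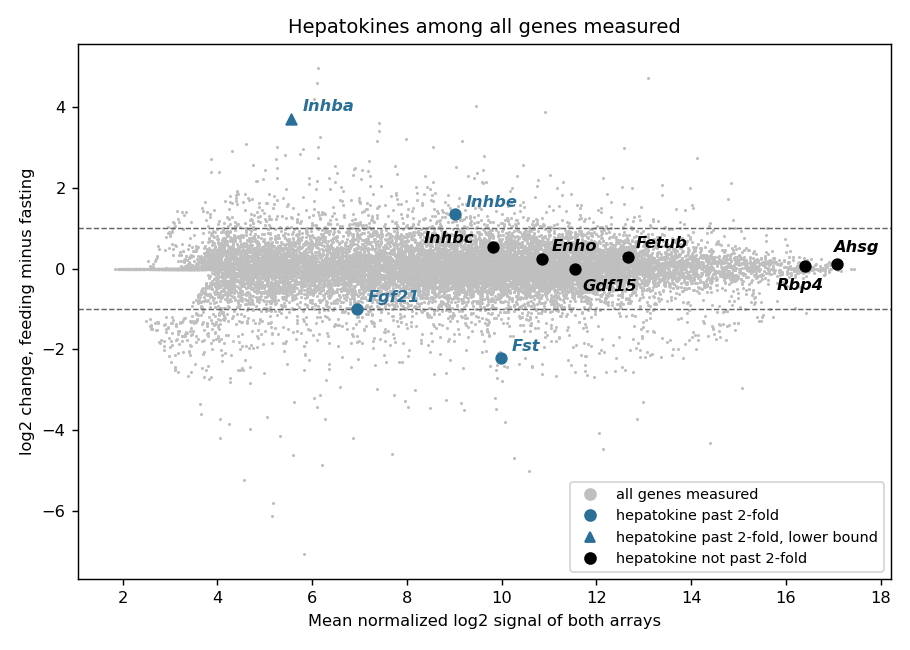
Log2 change (feeding minus fasting) of every gene measured against its mean normalized log2 signal over both arrays, with dashed lines at 2-fold and the hepatokines named. Inhba (triangle, the bound of 3.71 against the limit of 14.7 on the fasting array) and Inhbe lie above the upper line. Fst lies below the lower line and Fgf21 lies on it. The row of genes at 0 at low signal are those whose lower bound is no change.

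Fst, which encodes follistatin, had the largest decrease among the hepatokines. The processed signal went from 2220 ± 222 upon fasting to 446 ± 44.6 upon feeding. The normalized levels were 2185 and 472, a log2 change of -2.21, or 4.63-fold lower. The change was 23.5 times the replicate-spot SD of 0.09, while the extraction software's spot errors gave it a larger error of 0.20. Only 0.679% of the genes measured decreased more. The decrease stayed past 2-fold under scaling by the 75th percentile (-2.21) and by the median (-2.08) and after the normexp correction (-1.94). The other processing settings could not change its value, because Fst has 1 probe, well above background on both arrays.

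Inhba, which encodes the beta A subunit of activin A, had the largest increase of the 10. Upon fasting its processed signal was 12.2 ± 3.57 over a local background of 29.5 and was not well above background, while upon feeding it was 179 ± 17.9 over a background of 22.0. The fasting level is therefore only a limit. The lowest normalized signal that any probe well above background had on the fasting array was 14.7. Against this limit the feeding level of 192 was 13.1-fold higher, a log2 change of 3.71. That bound depends on the limit and the scaling. It was 3.64 under scaling by the 75th percentile and 3.46 against a higher limit of 17.4. With the fasting spot at its own normalized signal of 11.6 the difference was 4.05. Inhba passed the filter through the feeding array alone, so its place among all genes is not given. Replicate spots as bright as the Inhba spot of each array gave an SD of 0.53 for a difference between the arrays. The bound is not set against this SD, because it rests on the fixed limit of 14.7 in place of the fasting spot. After the normexp correction, which adds an offset of 50 and so compresses dim spots, the change was 1.28. A filter that asks for signal well above background on both arrays leaves Inhba out.

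Inhbe, the beta E subunit, is expressed chiefly in liver. Its normalized signal was 324 upon fasting and 822 upon feeding, a change of 1.34, or 2.54-fold higher. This was 12.6 times the replicate-spot SD of 0.11, with 1.47% of genes increasing more. It was past 2-fold under scaling by the 75th percentile (1.32) and by the median (1.45) and after the normexp correction (1.06). As for Fst, the other processing settings could not change its value. Inhbc, the beta C subunit, is also a liver gene and lies next to Inhbe on chromosome 10 with 0 annotated genes between them. Its signal was 744 upon fasting and 1083 upon feeding, a change of 0.54, or 1.46-fold higher. So the neighbours had the same direction, with the larger change in Inhbe. Inhbc stayed short of 2-fold in the settings tried (0.48 to 0.68), although its change was 5.29 times the replicate-spot SD of 0.10. By the extraction software's spot errors, the change of Inhbe and that of Inhbc each had a larger error of 0.20. Whether the changes of Inhbe and Inhbc differ between mice was not tested.

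Of the other genes of the activin system, Inhbb was the one past 2-fold, in the opposite direction to Inhba and Inhbe. Inhbb, the beta B subunit, had signals of 756 upon fasting and 308 upon feeding, a change of -1.29, and of -0.92 after the normexp correction. The activin and follistatin list had 15 measured genes out of 17, with a median change of -0.27. The 4 beta subunit genes Inhba, Inhbe, Inhbc and Inhbb thus had log2 changes of 3.71 (the bound against the limit of 14.7), 1.34, 0.54 and -1.29, in that order. Inha, the alpha subunit that turns beta subunits into inhibins, had a bound of 0. The follistatin-like genes Fstl1 and Fstl3 were at -0.52 and -0.51. Of the transducers, Smad4 was at -0.29, with a second probe at -0.98, and Smad3 at 0.25. The type I receptor gene Acvr1 was at 0.26, with its other probe at -0.40. Acvr1c, a receptor of activins in fat, and the decoy receptor gene Bambi did not stand well above background in either pool.

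**Figure D3:**
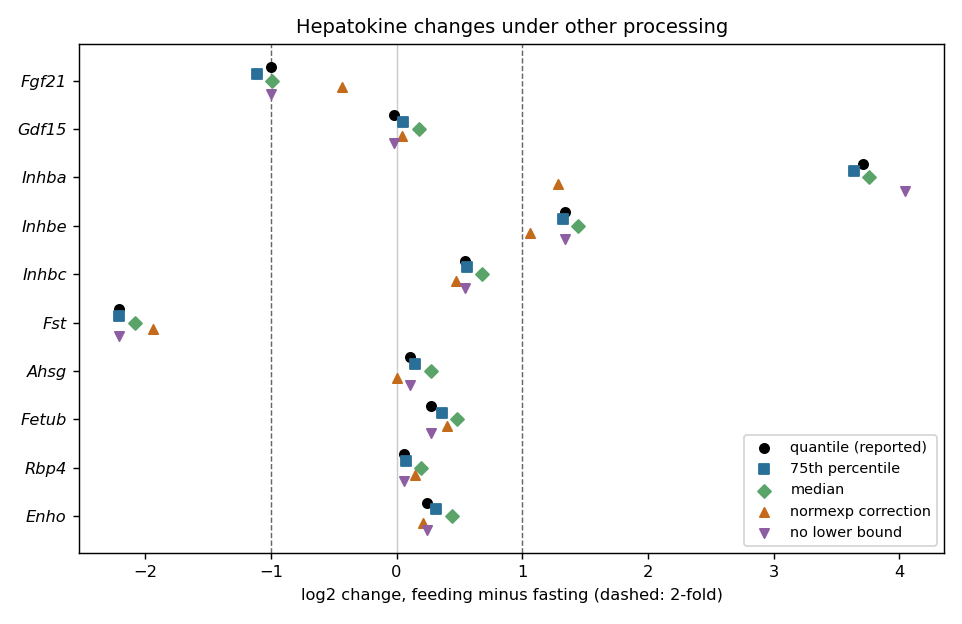
Log2 change (feeding minus fasting) of each hepatokine under the reported setting and 4 alternatives, 1 symbol per setting, with dashed lines at 2-fold. Fst, Inhbe and Inhba keep beyond the lines wherever they have a value, Fgf21 moves inside the line after the normexp correction (-0.43) and under median scaling (-0.99), and the other 6 stay inside.

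Gdf15 was at the same level in both livers. Its processed signals were 3064 ± 306 on the fasting array and 2950 ± 295 on the feeding array, and the normalized signal 3034 and 2985. The change of -0.02 was smaller than the replicate-spot SD of 0.09, and its sign turned under scaling by the 75th percentile (0.06), by the median (0.18) and after the normexp correction (0.04). Its transcription is known to be driven by ATF4 and CHOP, whose gene Ddit3 is given above. Gfral and Ret, the genes of the GDF15 receptor and its coreceptor, did not stand well above background in either pool.

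Ahsg and Fetub, the genes of fetuin-A and fetuin-B, lie close together on chromosome 16 with 1 annotated gene, Gm30611, between them. Ahsg had a normalized signal of 132800 upon fasting and 142892 upon feeding, a change of 0.11 against a replicate-spot SD of 0.14, an estimate that rests on only 4 and 3 replicate probes of that brightness. Fetub was at 5956 and 7201, a change of 0.27, or 1.21-fold higher, 3.28 times the replicate-spot SD of 0.08. The spot errors of the extraction software gave this change a larger error of 0.20, and under median scaling it was 0.48. Neither fetuin gene was near 2-fold, and in the reported setting the Ahsg difference was within the spread of replicate spots. Ahsg was at 0.15 under scaling by the 75th percentile and at 0.27 by the median. The related kininogen and histidine-rich glycoprotein genes were also close to level, Kng1 at -0.01, Kng2 at -0.03 and Hrg at 0.05. Insr, the gene of the insulin receptor that fetuin-A is known to inhibit, was at -0.63 with its 3 probes between -0.89 and 1.01, which disagree in sign. None of the 7 genes of this list was past 2-fold.

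Rbp4 had a normalized signal of 85058 upon fasting and 88749 upon feeding. The change of 0.06 was 0.480 times the replicate-spot SD of 0.13, which rests on 7 and 6 replicate probes. Its processed signal before normalization went from 87829 to 85547, but such signals are not on a common scale between the arrays. The change was 0.06 to 0.20 across the settings tried. In the reported setting it was too small beside the replicate-spot SD to give Rbp4 a direction. Ttr, whose protein transthyretin holds RBP4 in plasma, was at -0.02, and Stra6l, the gene of the liver's RBP4 receptor, at -0.01. Both of these partners were as level as Rbp4. Stra6, the gene of the RBP4 receptor of other tissues, did not stand well above background in either pool. Of 10 measured genes of retinol transport and storage out of 11, only Dgat1 was past 2-fold, at -1.07. Dgat1 encodes an enzyme that esterifies diacylglycerol as well as retinol, and its change was -0.93 under median scaling and -0.97 after the normexp correction.

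Enho had 2 probes to the same transcript, and they gave the same answer. The brighter probe had normalized signals of 1707 upon fasting and 2024 upon feeding, a change of 0.25, and the other 1311 and 1540, a change of 0.23. Each change was over 2 times the replicate-spot SD of 0.10 (2.49 and 2.36 times) and far from 2-fold. The spot errors of the extraction software gave a larger error of 0.20 for each change. Under median scaling the brighter probe was at 0.44. Of the nuclear receptors tied to Enho, Nr1h3, which encodes LXRα, was at 0.33, Rora at -0.29 and Nr1d1 at -0.97. None was past 2-fold, though Nr1d1 was at -1.04 under scaling by the 75th percentile. Gpr19, named as a candidate adropin receptor, had no named probe.

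For comparison, 25 other genes of liver proteins that act on other tissues were all measured, of which 3 were higher and 2 lower past 2-fold (20%, against 7.9% of all genes measured), with a median change of 0.07. Angptl8, an inhibitor of lipoprotein lipase made upon feeding, was at 4.72 and Angptl4, an inhibitor made upon fasting, at -3.29. Igfbp1, an insulin-repressed binding protein, was at -4.33, a larger decrease than that of Fst. Manf, a protein secreted upon endoplasmic reticulum stress, was at 1.98 and Tsku, a small leucine-rich proteoglycan, at 1.52, which became 0.90 after the normexp correction. Selenop (0.01), Igf1 (0.13) and Fgl1 (0.25) were as level as the fetuin genes and Rbp4. Over the 80 measured genes of the 8 lists together, 5 were higher and 7 lower, 12 genes or 15% of those measured, against 7.9% of all genes measured. These lists were written with earlier results of the data known.

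**Figure D4:**
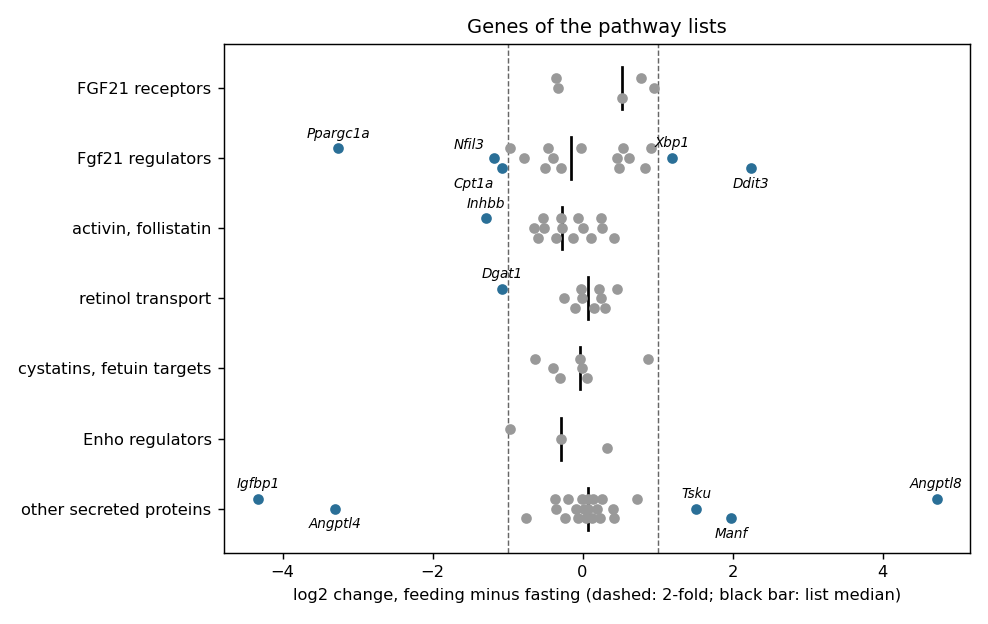
Log2 change (feeding minus fasting) of each measured gene in 7 pathway lists, 1 point per gene, with dashed lines at 2-fold, a black bar at each list's median and the genes past 2-fold in blue and named. The 5 named genes of the Fgf21 regulator list, among them the PPARα target Cpt1a, lie on both sides of 0. Inhbb is the only named gene of the activin list. The list of GDF15 receptors is left out because neither of its genes was measured.

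The samples carried the label of liver in their transcripts. All 8 hepatocyte markers were well above background, none was past 2-fold, 7 were below 0 (the lowest Tat at -0.97), and their summed signal was 770954 upon fasting and 677501 upon feeding. Of the endothelial, Kupffer cell and stellate cell markers, Pecam1 was the one past 2-fold, and the summed signals were lower upon feeding: of 5 endothelial markers all were below 0, with Pecam1 at -1.04 (summed signal 35391 and 27189), of 5 Kupffer cell markers 4 were below 0 (48515 and 38702), and of 6 stellate cell markers 3 were below 0 (39642 and 31170). Among 5 cholangiocyte markers Sox9 was at 2.11, from 377 to 1625, while Krt19 was at -0.31, Spp1 at -0.46 and Epcam at 0.08, and the sum went from 2757 to 3377. Among 4 leukocyte markers the dim Ms4a1 was at 1.21, from 17.6 to 40.6, while Ptprc was at -0.49 and Cd3e at -0.37, and the sum went from 1252 to 989. Adipoq, Lep and the muscle markers Ckm and Myh4 did not stand well above background in either pool. The adipocyte marker Cidec was measured on both arrays, at 8679 and 5081, a change of -0.77. The adipocyte marker Plin1 (2.21 and 10.2) and the muscle marker Acta1 (15.6 and 10.7) were well above background only on the feeding array. The lowest detected signal was 6.55 on that array and 14.7 on the fasting array, and each gene had a bound of 0. Of 6 pancreas markers 5 were measured and none was past 2-fold, among them Amy2a5 (3600 and 3348) and Ins2 (162 and 118). Of 4 red blood cell markers 3 were measured, again with none past 2-fold. The part of these differences in the changes of Fst, Inhba and the other hepatokines was not tested. The feeding array had a lower median local background (22 against 30) and more spots well above background (72.3% against 63.1%), which bears on dim genes such as Inhba and Fgf21.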

How the data were processed

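Per the labels and the study's methods, total RNA of pooled livers was labelled with Cy3 and put on Whole Mouse Genome oligonucleotide arrays from Agilent, 1 array per group. The authors deposited the scanner output of Agilent Feature Extraction 11.0.1.1, in which the values used are intensities per spot: the processed signal (background subtracted, not normalized), its error, the raw median signal and local background. The deposited value table holds an intensity equal to the mean local background in 44397 of 44397 spots of each array (relative tolerance 1e-06) and was not used.

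Of 44397 spots, 1377 controls and, per array, 123 and 98 outlier spots were left out. Log2 processed signals were averaged over the spots of a probe and quantile normalized. Probes were named through their RefSeq transcripts (27218 of 39402 matched), and a gene took its probe with the highest mean signal. A probe not well above background on 1 array has a lower bound. No test can be made between single arrays. The replicate-spot SD comes from 399 probes spotted 10 times and covers the measurement on the array only, and the number of arrays limits precision. Both arrays share the scan date, grid and protocol. The array design names an older assembly (mm9), so no probe or gene coordinates are given, and the promoter windows carry those of the RefSeq table.

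The members and lists were chosen with earlier results of these data known. Genes named were the members, the list genes past 2-fold, and up to 3 more per list with the highest mean signal, of which 1 is not reported here; Kl, Ppara, Fstl1, Fstl3, Inha, Acvr1c, Bambi, Gfral, Ret, Stra6, Insr and Gpr19 and the marker genes were named after their values were seen. Other settings tried were the 75th percentile or the median as scale, a normexp correction of the raw median signal (offset 50, limma 3.58.1, R 4.3.3), averaging a gene's probes, a filter on both arrays, no lower bound, a higher bound, and thresholds of 1.5-fold and 3-fold. The procedure was tested on simulated data in which every probe was set well above background. The filter and the lower bound were therefore not tried there.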

Additional observations from a re-analysis of the deposited data

How the results depend on the processing

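Fst, Inhbe and Inhba kept their direction and stayed past 2-fold in every setting that gave them a value, with ranges of -2.21 to -1.94, 1.06 to 1.45 and 1.28 to 4.05. For Fst and Inhbe, only the scalings and the normexp correction could change the value. Fgf21 kept its direction but ranged from -1.11 to -0.43. The number of hepatokines lower past 2-fold was therefore 1 under median scaling and 1 after the normexp correction, and the number higher was 1 when both arrays had to be well above background. In each of these settings 3 hepatokines were past 2-fold in either direction. The shares of all genes were 8.32% under median scaling, 3.23% after the normexp correction and 7.56% with the filter on both arrays. At 3-fold 2 hepatokines were past the threshold, 1 higher and 1 lower, against 2.87% of all genes in either direction. Against a higher detection limit on the fasting array (a normalized signal of 17.4, where detected probes became as common as undetected ones, chosen after seeing the data), the bound for Inhba was 3.46. Gdf15 changed sign under the 2 scalings and the normexp correction without nearing 2-fold.

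Of the lists, scaling by the 75th percentile gave 1 FGF receptor gene and 1 Enho regulator past 2-fold, against 8.01% of all genes. Median scaling gave 1 FGF receptor gene and 0 retinol genes, against 8.32%. The normexp correction gave 0 activin genes and 0 retinol genes, against 3.23% of all genes. At 1.5-fold, 2 of 5 FGF receptor genes, 10 of 18 genes of the Fgf21 regulator list and 3 of 15 activin genes were past the threshold. So were 2 of 7 genes of the fetuin list and 1 of 3 Enho regulators, against 21.1% of all genes. At 3-fold, 2 of 18 genes of the Fgf21 regulator list, 0 of 15 activin genes and 0 of 10 retinol genes were past it. Of all genes, 2.87% were. The cause of these differences was not tested beyond the settings themselves.

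Median scaling moved the median of all genes by 0.09, so that 52.3% of the genes past 2-fold were higher upon feeding, against 41.4% after quantile normalization and 53.5% without the lower bound. All genes past 2-fold numbered 1291, and 527 after the normexp correction, 3447 at 1.5-fold, while 2.87% of genes were past 3-fold. No paired analysis was possible because each group has 1 array. Naming by a gene name column was not run, since the scanner tables used here hold transcript identifiers. Signal over background limits Inhba upon fasting and, less so, Fgf21 upon feeding.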
